A study of Mus musculus with 18 samples.

Results

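Mir143 and Mir145a are neighbouring mouse miRNA hairpin loci, and both were found by their Ensembl identifiers among the 2009 loci counted in each library, so the cluster makes up 2 of 2009 loci. Small RNA was sequenced from stromal cells of mouse fat (ASC, adherent mesenchymal progenitors), and from the extracellular vesicles (EVs) that such cells release. All 18 libraries were labelled as adipose, adult and of the strain NGL. There were 5 libraries of EVs from cells primed with interferon gamma for 24 h (primed EV), 5 of EVs from cells without it (naive EV), 4 of primed cells (primed ASC) and 4 of untreated cells (naive ASC). All cells were then kept for 48 h in alpha MEM with 2% EV-free serum. EV RNA came from a SeraMir column kit, whereas TRIzol followed by RNeasy was used for ASC RNA, so vesicle against cell and one isolation method against the other cannot be told apart. Each library took 5 microlitres of RNA. The label for molecule subtype reads extracellular vesicle miRNA for all 18 libraries, also for cells, and the groups were therefore taken from the source names. No label says that replicates came from separate animals or cultures, so the p-values here speak of the scatter among these libraries, which may be technical. Primed EV 1 and primed EV 5 carry the same number in their titles, and the titles of naive EV 1 and naive ASC 1 join the numbers 1 and 2.

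An miRNA hairpin is cut by Drosha and then Dicer, and an arm of it is loaded into Argonaute, where its seed pairs with target mRNAs. Mir143 and Mir145a are made from 1 primary transcript that serum response factor and myocardin drive in smooth muscle, and that pericytes and fibroblasts also make. Both products favour the contractile over the proliferating state of smooth muscle, miR-143 also favours fat cell differentiation, and p53 promotes Drosha processing of both hairpins. In the coordinates of the files (GRCm38, minus strand), Mir145a lies on chromosome 18 from 61647816 to 61647903 (88 bases) and Mir143 from 61649190 to 61649269 (80 bases), 1286 bases apart. The GENCODE M21 annotation places no other gene over either hairpin, so both are intergenic there. Carmn, a long noncoding RNA of heart and smooth muscle, ends 355 bases upstream of Mir143 on the same strand, and Bvht, a long noncoding RNA of heart development, lies 343 bases beyond Mir145a on the other strand. The paralogue Mir145b, also on chromosome 18, had 0 counts in all 18 libraries.

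Mir143 was among the most heavily counted loci in every library, and its share of counts was higher in EVs than in cells. Its share was 18.1%, 22.8%, 24.8%, 24.4% and 22.6% in primed EV 1 to 5, and 23.2%, 20.3%, 22.3%, 25.2% and 21.9% in naive EV 1 to 5. In cells it was 8.29%, 7.39%, 7.35% and 6.69% in primed ASC 2 to 5, and 12.9%, 16.9%, 17.0% and 8.57% in naive ASC 1, 3, 4 and 5. Every EV library lay above every ASC library, primed and naive EV libraries overlapped, and the 4 primed ASC libraries lay just below the lowest naive ASC library. Such gaps were not rare among the 245 loci with enough counts to test. Shares were higher without overlap for 22.4% of them in naive EV against naive ASC and 20% in primed EV against primed ASC. They were lower without overlap for 7.76% in primed against naive ASC. Naive ASC was the widest group, with a coefficient of variation of 29.0%, against 11.9% in primed EV, 8.08% in naive EV and 8.81% in primed ASC.

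Mir145a showed the opposite placing. It took 0.0857%, 0.163%, 0.126%, 0.126% and 0.182% of counts in primed EV 1 to 5, and 0.162%, 0.127%, 0.185%, 0.164% and 0.140% in naive EV 1 to 5. It took 0.870%, 1.19%, 0.994% and 0.558% in primed ASC 2 to 5, and 1.66%, 1.35%, 1.56% and 1.49% in naive ASC 1, 3, 4 and 5. Every EV library lay below every ASC library, and every primed ASC library lay below every naive ASC library. Of the 245 loci, 40.8% were lower without overlap in naive EV against naive ASC and 40.4% in primed EV against primed ASC. In primed against naive ASC 7.76% were. The depth behind the shares of both hairpins was ample. Mir145a had 639 to 4975 counts in EV libraries and 1797 to 14214 in ASC libraries. The widest 95% Wilson interval was 0.0457 points to either side for Mir145a and 0.120 points for Mir143. Such intervals cover counting error only.

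**Figure D1:**
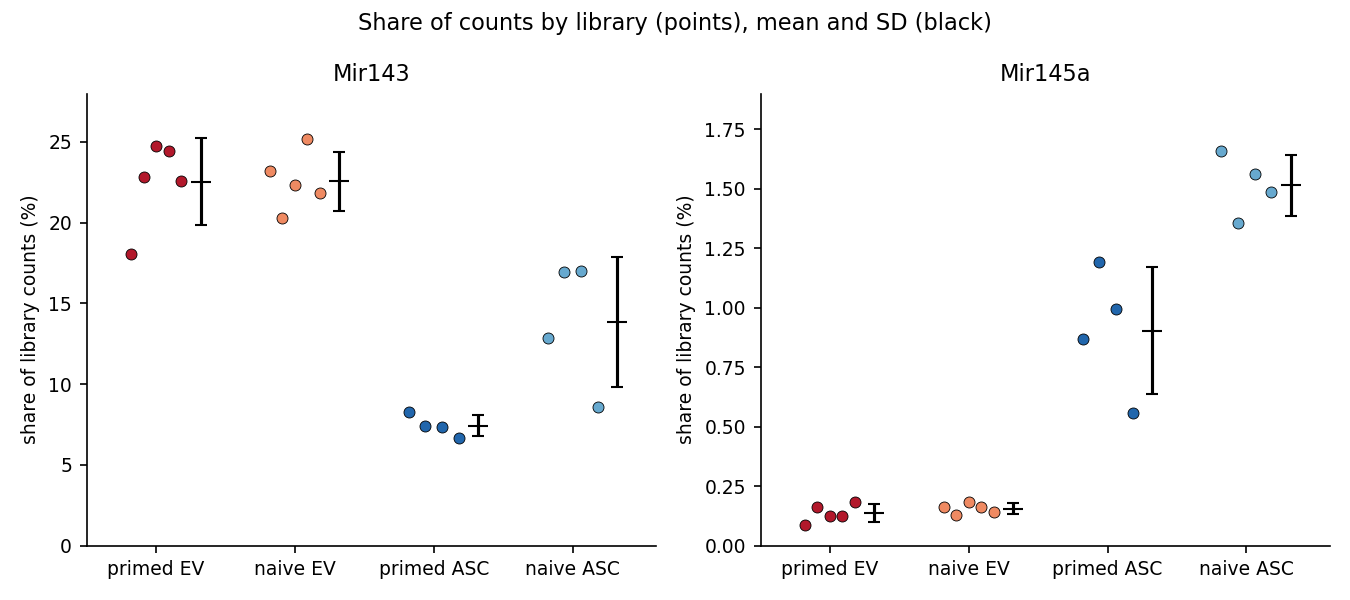
Share of each library's counts (percent, linear axes from 0) taken by Mir143 (left) and Mir145a (right) in primed EV, naive EV, primed ASC and naive ASC. Points are libraries, and black marks give the mean with its SD (n = 5, 5, 4 and 4). Mir143 averaged 22.5% and 22.6% in the EV groups against 7.43% and 13.9% in the ASC groups, while Mir145a averaged 0.137% and 0.156% against 0.903% and 1.52%.

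Ranked by counts per base of hairpin, Mir143 was the first or second locus in all EV and naive ASC libraries and ranked 3 or 4 in primed ASC. Mir145a ranked 42 to 64 in primed EV, 44 to 56 in naive EV, 15 to 29 in primed ASC and 12 to 17 in naive ASC. The order of the mean shares ran, for Mir143, naive EV, primed EV, naive ASC and primed ASC, and for Mir145a, naive ASC, primed ASC, naive EV and primed EV. In both orders the EV neighbours did not differ beyond their spread.

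The count ratio of Mir143 to Mir145a within a library does not depend on how libraries are scaled. It was 211, 140, 196, 194 and 124 in primed EV 1 to 5, and 144, 159, 120, 153 and 156 in naive EV 1 to 5. It was 9.52, 6.20, 7.40 and 12 in primed ASC 2 to 5, and 7.77, 12.5, 10.9 and 5.76 in naive ASC 1, 3, 4 and 5. The lowest EV ratio was thus 10.4 times the highest ASC ratio among primed libraries and 9.62 times among naive ones, and primed and naive libraries overlapped in both EVs and cells. Between group means on the log scale, the ratio was 19.9-fold higher in primed EV than in primed ASC and 16.5-fold higher in naive EV than in naive ASC. Between primed and naive it was 1.16-fold in EVs and 0.962-fold in cells. Per base of hairpin the mean ratio was 190 in primed EV, 161 in naive EV, 9.66 in primed ASC and 10.2 in naive ASC. The ratio is given as a description with no test.

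**Figure D2:**
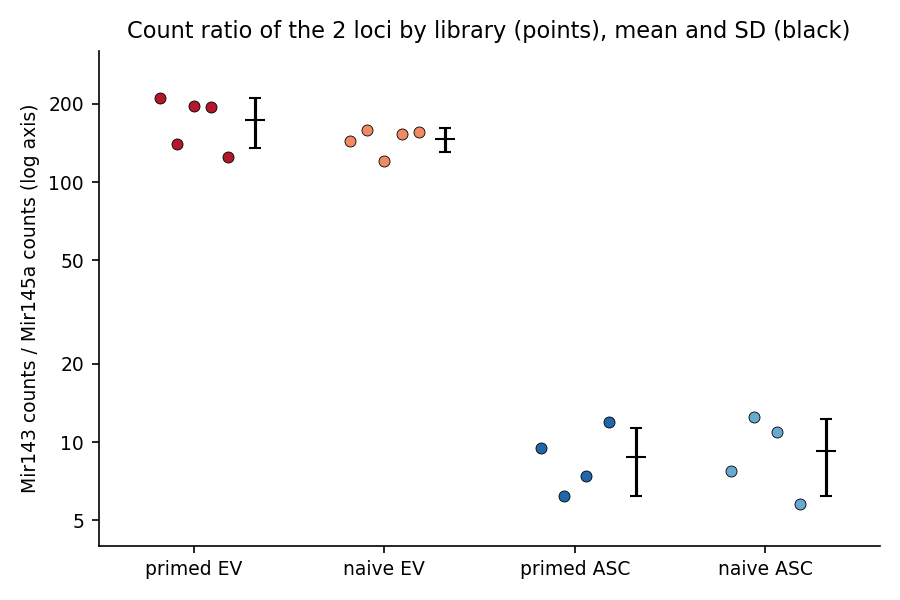
Counts of Mir143 divided by counts of Mir145a in each library, on a logarithmic axis, for primed EV, naive EV, primed ASC and naive ASC. Points are libraries, and black marks give the mean with its SD. The EV libraries lie between 120 and 211 and the ASC libraries between 5.76 and 12.5, with no library in between.

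The loci whose levels ran most like those of each hairpin did not include the other hairpin. Likeness was measured as the root mean square difference of centred log2 CPM (counts scaled to a common library size) over the 18 libraries, among the 245 loci with enough counts to test. The 5 loci most like Mir143 were Mir186 (difference 0.33), Mir22 (0.34), Mir30a (0.37), Mir196b (0.37) and Mir27a (0.38), and Mir145a came 228th of 244 at 2.11. Mir22, known from heart muscle growth, was the most counted locus of most libraries. The 5 most like Mir145a were Mir3102 (0.47), Mir99b (0.50), Mir652 (0.51), Mir15b (0.51) and Mir667 (0.53), and Mir143 came 190th of 244. In primed against naive ASC the log2 fold change of Mir145a was -0.71. There these 5 were at -0.57, 0.49, -0.16, -0.0007 and 0.02 in the same order.

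The mature arms of the 2 nearest loci of each are shown so that their seeds can be compared. Sequences are from RefSeq (GRCm38.p6), written 5′ to 3′, with the seed (bases 2 to 8) in capitals. For Mir143 these are the arms of Mir186 and Mir22.
miR-186-5p: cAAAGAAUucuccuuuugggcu
miR-186-3p: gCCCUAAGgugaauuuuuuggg
miR-22-5p: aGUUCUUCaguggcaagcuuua
miR-22-3p: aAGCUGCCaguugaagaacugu
For Mir145a these are the arms of Mir3102, which has 4 annotated products, and Mir99b.
miR-3102-5p: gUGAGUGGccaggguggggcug
miR-3102-5p.2-5p: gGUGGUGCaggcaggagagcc
miR-3102-3p.2-3p: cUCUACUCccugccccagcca
miR-3102-3p: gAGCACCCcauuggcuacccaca
miR-99b-5p: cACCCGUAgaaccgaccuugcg
miR-99b-3p: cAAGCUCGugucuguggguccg
No seed recurs here. All 10 arms of the 5 loci most like Mir143 had distinct seeds, as did the 12 arms of the 5 loci most like Mir145a, and 0 seeds were in both sets. The arms of the first set had a median GC content of 45.5% and those of the second 63.6%, against 52.2% over all mature arms of the table, and the part of base composition in the patterns was not tested. Mir15b was the exception in the second set, with 40.9% and 36.4% GC in its arms.

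The comparison of EVs with their parent cells asks which miRNAs the vesicles carry beyond the level of the cell. Mir143 was 2.22-fold higher in naive EV than in naive ASC (log2 fold change 1.15, SE 0.22, n = 5 and 4; adjusted p = 0.000164 in edgeR's quasi-likelihood test, with p-values adjusted after Benjamini and Hochberg over 245 loci), while Mir145a was 6.93-fold lower (-2.79, SE 0.23; edgeR adjusted p = 4.05e-09). Mir143 averaged 247317 ± 43294 CPM (scaled by the trimmed mean of M values, TMM) in naive EV and 111518 ± 41007 CPM in naive ASC, and Mir145a 1721 ± 440 CPM and 11924 ± 1851 CPM (SD). Both hairpins passed the threshold of 0.05, as did 66.1% of the 245 loci (33.5% higher and 32.7% lower), so a call by itself is common here. In this comparison 30.2% of loci were higher in naive EV without overlap of libraries, as Mir143 was, and 28.2% were lower without overlap, as Mir145a was. Of the 245 loci, 7 had a log2 fold change below that of Mir145a and 67 had one above that of Mir143. In bulk RNA, fewer cells with a given miRNA and less of it per cell cannot be told apart.

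Primed EV against primed ASC gave the same directions. Mir143 was 4.99-fold higher (2.32, SE 0.23; edgeR adjusted p = 4.87e-08), at 300523 ± 46874 CPM in primed EV and 60202 ± 5239 CPM in primed ASC. Mir145a was 4.04-fold lower (-2.02, SE 0.23; edgeR adjusted p = 2.26e-07), at 1798 ± 417 CPM in primed EV and 7271 ± 1992 CPM in primed ASC. Here 68.2% of the 245 loci passed (35.9% higher and 32.2% lower), and both hairpins were again without overlap, as were 27.8% of loci that were higher and 25.7% that were lower. In raw shares, with exact two-sided permutation tests over libraries, the EV and ASC groups of both hairpins differed at p = 0.0159, the smallest p that 5 against 4 libraries can give (adjusted p = 0.0317 over 8 share tests). Shares without overlap were common: 22.4% of loci were higher and 40.8% lower in naive EV than in naive ASC, and 20% higher and 40.4% lower in primed EV than in primed ASC.

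**Figure D3:**
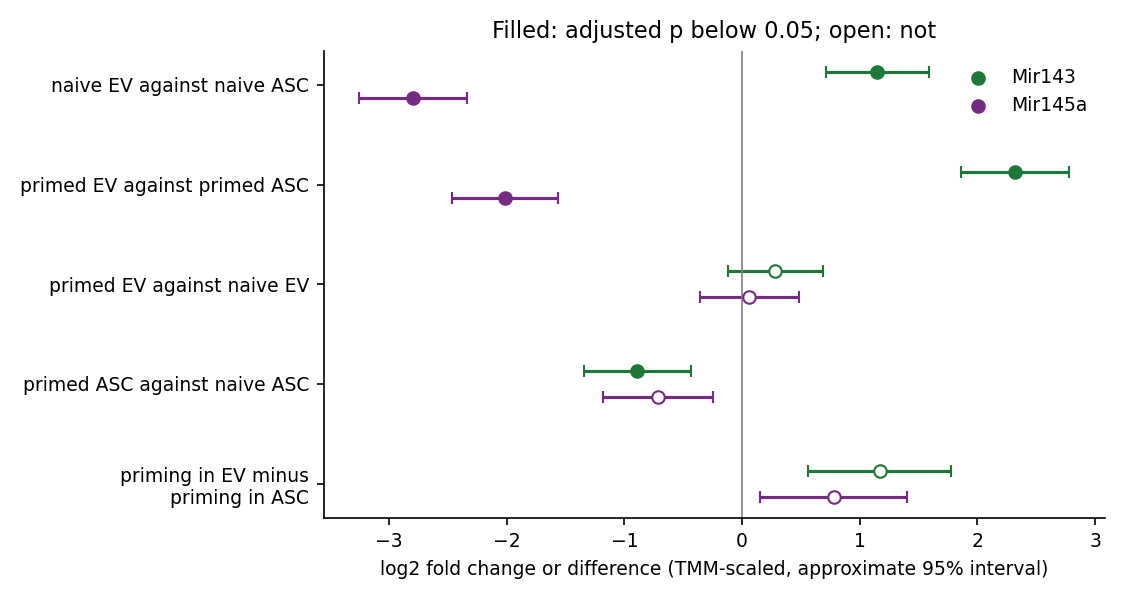
Log2 fold changes of Mir143 (green) and Mir145a (purple) from the edgeR fit in 4 comparisons, and the difference of the priming effects in the lowest line, with approximate 95% intervals. Filled points have an adjusted p below 0.05. The hairpins lie on opposite sides of 0 in both EV against ASC comparisons, at 1.15 and -2.79 for naive and 2.32 and -2.02 for primed, and on the same side in the ASC priming comparison.

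A split between neighbouring hairpins was also seen elsewhere, and the Mir143 and Mir145a pair was among the wider ones. Among the 245 loci there were 74 pairs of consecutive loci on 1 strand with starts within 10000 bases. The log2 fold changes of naive EV against naive ASC differed within a pair by a median of 1.04, and in 35 of 74 pairs by at most 1. Mir143 and Mir145a differed by 3.94, the sixth widest, and the widest were Mir141 and Mir200c (5.56), Mir542 and Mir351 (4.79), and Mir667 and Mir376c (4.58). Between primed EV and primed ASC they differed by 4.33, again the sixth widest, against a median of 1.26. Both loci of a pair passed with opposite signs in 12 pairs of the naive and 16 pairs of the primed comparison. Several wide pairs hold a locus with few counts, such as Mir200c at a mean of 15.6 CPM, whereas Mir145a averaged 5243 CPM over all libraries.

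**Figure D4:**
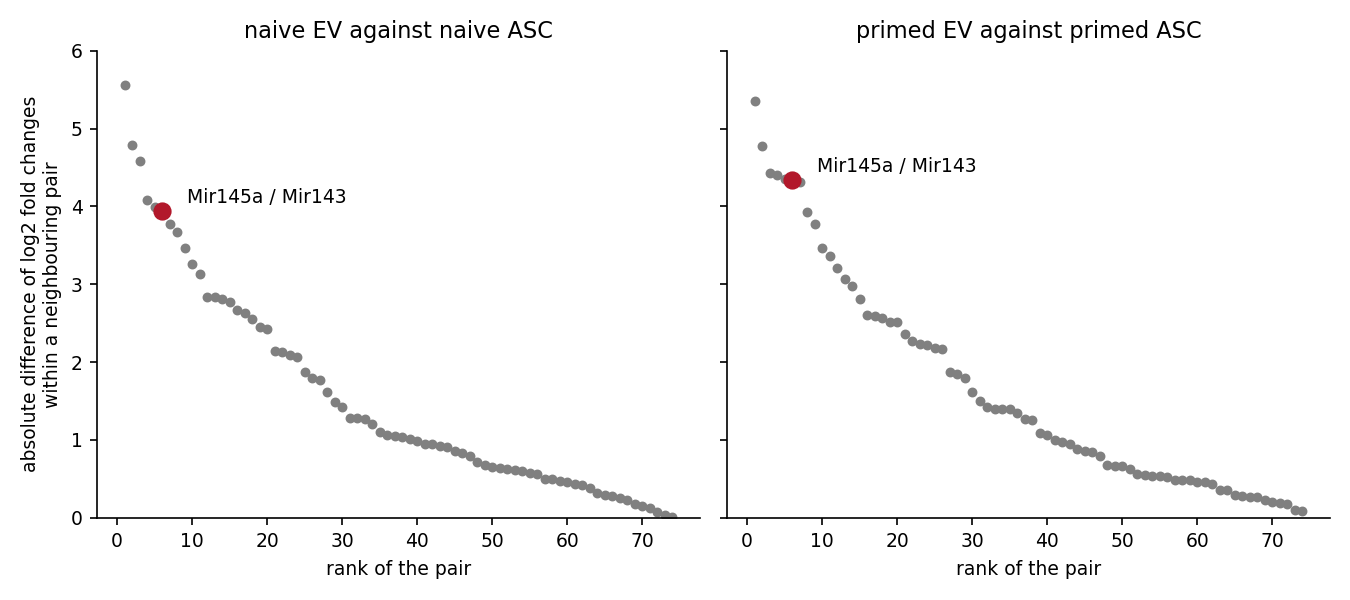
Absolute difference of log2 fold changes (EV over ASC) within each of 74 pairs of neighbouring miRNA loci, ranked from the widest, for naive (left) and primed (right) samples. Each point is a pair, and the red point is Mir145a with Mir143, at 3.94 and 4.33, sixth in both.

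The comparison of primed with naive cells asks what interferon gamma changes. Mir143 fell to 60202 ± 5239 CPM in primed ASC, against 111518 ± 41007 CPM in naive ASC (log2 fold change -0.89, SE 0.23, n = 4 each; edgeR adjusted p = 0.0232), in a comparison where 10.2% of the 245 loci passed (5.31% higher and 4.9% lower). On the CPM scale naive ASC 5, at 55060, lay below the 4 primed ASC libraries, which ran from 55138 to 67427, so the groups overlapped. In raw shares they did not, as for 7.76% of loci that were lower. The call rested on several single libraries. It was lost without naive ASC 3 (-0.70, adjusted p = 0.0958), naive ASC 4 (-0.75, 0.0889), primed ASC 3 (-0.84, 0.0654) or primed ASC 4 (-0.76, 0.106), and when only the 8 ASC libraries were fitted (-0.78, 0.129), while without naive ASC 5 the value was -1.05 (adjusted p = 4.84e-05). Over all single libraries left out the adjusted p ran from 4.84e-05 to 0.106, and over the other alternatives from 0.00606 to 0.129.

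Mir145a averaged 7271 ± 1992 CPM in primed ASC and 11924 ± 1851 CPM in naive ASC, and did not pass (-0.71, SE 0.24; edgeR adjusted p = 0.0608, 4 libraries a group). It passed with library totals alone (-0.75, adjusted p = 0.0391), in limma-voom (-0.76, 0.0399) and without primed ASC 3 (-0.85, 0.0406). The adjusted p ran up to 0.170 over the alternatives and up to 0.157 over the libraries left out. In raw shares both hairpins were lower in primed than in naive ASC, with a difference of -6.43 points for Mir143 and -0.612 points for Mir145a. Each had an exact permutation p of 0.0286, the smallest that 4 against 4 libraries can give, and an adjusted p of 0.0381 over the 8 share tests. With the counts of Mir22 and Mir21a, or of the 5 other most abundant loci, taken out of the total, the adjusted p for Mir143 was 0.0762.

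A set of 24 loci held at least 1% of counts in the mean of some group, a limit chosen after the values were seen, and the set is described with no count of calls. Mir143, which was above that limit in all 4 groups, had the lowest log2 fold change of the 24 in primed against naive ASC. Mir140, a cartilage miRNA, rose at 1.01, Mir125a at 0.82 and Mir125b-1 at 0.68. Mir423 (1.04) and Mir541, an miRNA of the imprinted Dlk1-Dio3 region (-0.80), also passed, but each entered the set only through the group where it was high. Mir423 held 1.34% of counts in primed ASC and 0.695% in naive ASC, and Mir541 0.952% in primed ASC and 1.75% in naive ASC. The same holds for Mir145a, at 1.52% in naive ASC and 0.903% in primed ASC, and for Mir182, at 1.20% and 0.706%. Mir151 and Mirlet7d entered only through primed ASC. The order within the set therefore rests in part on the values that chose it. Mir22 at -0.07 and Mir21a at -0.30 did not pass.

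**Figure D5:**
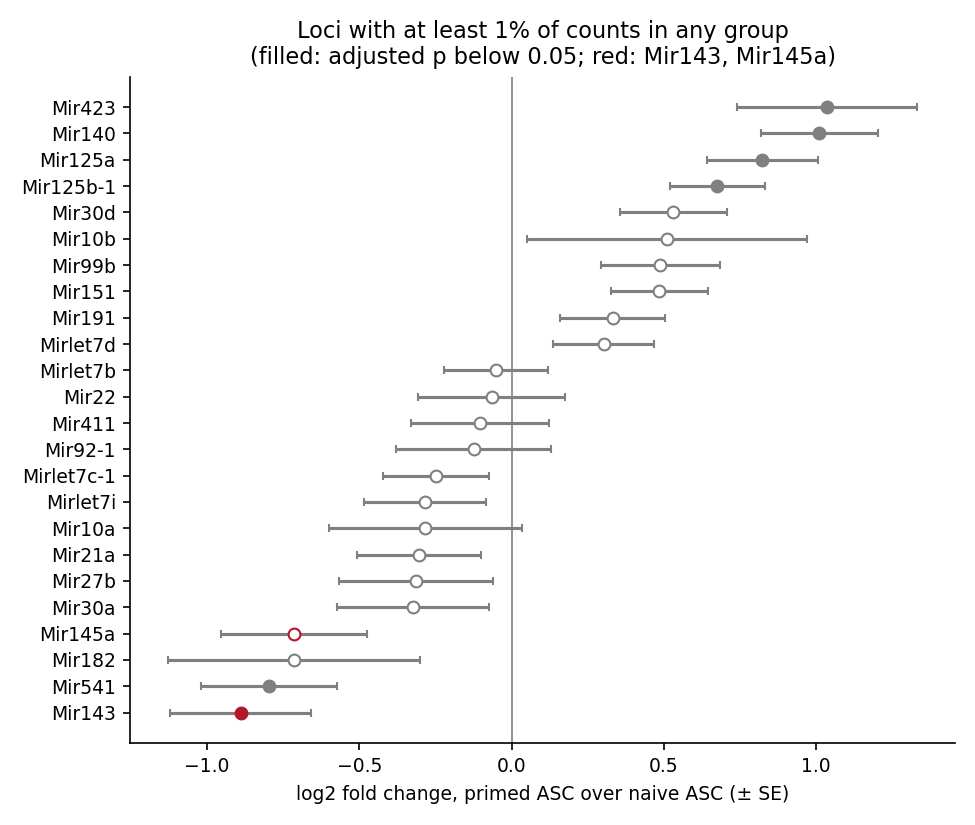
Log2 fold change (points, with SE) of primed ASC over naive ASC for the 24 loci with at least 1% of counts in some group mean, ordered from highest to lowest. Filled points have an adjusted p below 0.05, and Mir143 (-0.89, filled) and Mir145a (-0.71, open) are red. Mir143 stands last of the 24. Mir145a and some others are in the set only through the ASC group where they were higher.

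In the vesicles neither hairpin passed for priming. For primed EV against naive EV the log2 fold change was 0.28 for Mir143 (SE 0.21, approximate 95% interval -0.12 to 0.68; edgeR adjusted p = 0.673) and 0.06 for Mir145a (SE 0.21, approximate 95% interval -0.36 to 0.48; edgeR adjusted p = 0.936). In this comparison 0.816% of the 245 loci passed. Shares averaged 22.5% ± 2.68 in primed EV and 22.6% ± 1.82 in naive EV for Mir143 (SD, n = 5 each, exact permutation p = 0.960), and 0.137% ± 0.0371 and 0.156% ± 0.0225 for Mir145a (exact permutation p = 0.349). The sign of both log2 values depended on the scaling, with -0.0021 for Mir143 and -0.19 for Mir145a under library totals alone.

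The difference between the priming effects in EVs and in ASC was 1.17 for Mir143 on the log2 scale (SE 0.31; edgeR, unadjusted p = 0.00119 and adjusted p = 0.232) and 0.78 for Mir145a (SE 0.32; adjusted p = 0.323). Neither passed, and so an unequal effect of priming in vesicles and cells was not shown for either hairpin. Of the 245 loci 0 passed in edgeR and 26 had an unadjusted p under 0.05, while 3 passed in DESeq2 and 0 in limma-voom. Without naive ASC 5, the cell library lowest in Mir143 on the TMM-scaled CPM scale and the lowest of the naive ASC libraries by share, the value for Mir143 was 1.28 and passed (adjusted p = 0.000138), and it passed with no filter on low counts (1.26, adjusted p = 0.0195). Without each other library the value stayed between 0.88 and 1.26, with no call.

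Other miRNAs of mesenchymal and smooth muscle cells passed in both directions between vesicle and cell, in shares near those of all loci. Of 30 listed loci 26 had enough counts to test. In naive EV against naive ASC 7 were higher (26.9%, against 33.5% of all loci), 9 lower (34.6%, against 32.7%) and 10 did not pass, with a median log2 fold change of -0.15 against -0.24 over all 245 loci. Without the 2 hairpins, 6 of the other 24 were higher and 8 lower. The highest were Mir29c at 3.39, Mir21a, an abundant miRNA of injured and growing cells, at 3.07, Mir24-2 at 2.11 and Mir22 at 1.23. The lowest were Mir145a at -2.79, Mir29b-1 at -2.70, Mir125b-1 at -2.24 and Mir214, a fibroblast miRNA, at -2.17. In primed EV against primed ASC 10 were higher and 10 lower (38.5% each, against 35.9% and 32.2% of all loci), with a median of 0.13 against 0.02 over all loci, or 9 and 9 of the other 24. The highest there were Mir21a at 3.58, Mir29c at 3.01, Mir143 at 2.32 and Mir24-2 at 2.09, and the lowest Mir125b-1 at -2.52, Mir214 at -2.23, Mir145a at -2.02 and Mir125b-2 at -1.72. The mature products of Mir24-2, Mir29b-1 and the Mir125b loci are also encoded by a second locus, so their split between copies is uncertain.

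For priming, Mir140 was the 1 of 26 to pass between primed and naive EV, at 0.84, where 0.816% of all loci passed, and 0 of 26 passed there with library totals alone. In primed against naive ASC Mir140 at 1.01, Mir125b-2 at 0.98 and Mir125b-1 at 0.68 rose, Mir143 was the 1 that fell, where 5.31% of all loci were higher and 4.9% lower, and the median of the 26 was -0.07 against -0.12 over all loci. Of 8 miRNAs of the serum response factor and myocardin programme, only Mir143 and Mir145a could be tested. Mir133a-1 and Mir133a-2, which mark striated muscle, had 0 counts in every group. Of the 7 loci of this list in the files, with the 2 hairpins included, 5 had counts in primed ASC and 5 in naive ASC. In naive EV 4 had counts and in primed EV 3.

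Of 12 miRNAs linked to p53, 9 could be tested. In naive EV against naive ASC 5 were higher, Mir15a at 2.64, Mir192 at 2.00, Mir34c at 1.58, Mir143 and Mir16-1 at 1.02, and 3 were lower, Mir145a, Mir107 at -1.28 and Mir34b at -0.54. Of all loci 33.5% were higher and 32.7% lower there, and the median of the 9 was 1.02, against -0.24 over all loci. In primed EV against primed ASC 6 were higher, with Mir34a, a direct p53 target, at 1.11 joining them, and 2 were lower, Mir145a and Mir34b at -1.19, with a median of 1.42 against 0.02, where 35.9% of all loci were higher and 32.2% lower. In primed against naive ASC Mir34b rose at 0.86, Mir143 fell, and the other 7 did not pass, where 10.2% of all loci passed. Between primed and naive EV the 9 ran from -0.44 for Mir107 to 0.38 for Mir34a, with an edgeR adjusted p of at least 0.572. Mir16-1 shares a mature product with a second locus, and its value is uncertain in the same way.

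Depth and cell type markers were as follows. Libraries held 626951 to 3052942 counts in primed EV, 613448 to 2245823 in naive EV, 180812 to 895721 in primed ASC and 486237 to 926183 in naive ASC. The 8 mesenchymal marker loci were all counted in every group, with summed levels of 40469 to 92000 CPM of the library total in primed EV, 35570 to 49822 in naive EV, 137767 to 199931 in primed ASC and 81002 to 159961 in naive ASC. Of the 7 that could be tested, 0 were higher and 3 lower in naive EV than in naive ASC. In primed EV against primed ASC 2 were higher and 4 lower. Of all loci 33.5% were higher and 32.7% lower in the naive, and 35.9% and 32.2% in the primed comparison. Of the 8 blood markers the 6 found in the files summed to 1473 to 6253 CPM in primed EV, 3607 to 14892 in naive EV, 91.6 to 559 in primed ASC and 128 to 214 in naive ASC, and none was at 0 in any group. The endothelial Mir126a was at 1978 to 4962 CPM in primed EV, 3185 to 9024 in naive EV, 60.1 to 592 in primed ASC and 105 to 288 in naive ASC, and passed as higher in EVs in both comparisons. All 6 blood markers passed as higher in EVs in both comparisons, where 33.5% (naive) and 35.9% (primed) of all loci were higher. Mir143 was also higher in EVs in both. In primed against naive ASC the median log2 fold change of these 6 was 0.70, and that of Mir143 was -0.89. Of the 6, 0 passed there, where 10.2% of all loci passed. The part of these 6 in the Mir143 level was not tested. The sums of the 7 epithelial markers overlapped between groups, at 10.2 to 613 CPM in primed EV, 15.6 to 2875 in naive EV, 64.8 to 1270 in primed ASC and 41.1 to 2697 in naive ASC. Of the 6 that could be tested, 2 passed as higher in EVs in each comparison (33.3%, against 33.5% of all loci for naive and 35.9% for primed) and 0 as lower. These were Mir141 (5.28) and Mir200a (3.36) in naive EV against naive ASC, and Mir429 (4.81) and Mir141 (4.07) in primed EV against primed ASC. Mir200c (-0.28 naive, -0.33 primed) and Mir205 (-0.41, -1.18) were below 0 and did not pass. Mir200b (0.70, 1.07), Mir429 in the naive and Mir200a in the primed comparison were above 0 and did not pass. The part of these markers in the Mir143 level was not tested. The 6 neural markers summed to at most 9.83 CPM and the 7 striated muscle markers in the files to at most 35.1 CPM in any library.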

How the data were processed

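The authors deposited raw counts per miRNA hairpin locus, 1 file per library. Per the file headers they were made by featureCounts 1.5.3, unstranded, with the miRNA annotation of Ensembl release 76. GRCm38, featureCounts 1.45, STAR 2.0.4, Subread and bcl2fastq are listed in the submitters' processing notes. How adapters were trimmed is not given in the sources used here. Each count is of a hairpin, so the 5p and 3p arms cannot be told apart.

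Symbols came from GENCODE M21 by identifier for 1894 of 2009 loci, loci without one held 5 of 17629699 counts, and 29 names came from RefSeq at the same place. With edgeR 4.0.16 in R 4.3.3, filterByExpr kept 245 loci (99.9573% of counts), libraries were scaled by TMM, and all 18 were fitted with a mean per group. Adjustment (Benjamini-Hochberg, threshold 0.05) covered the 245 loci. SE came from the log2 fold change and its F statistic, and intervals are normal approximations. DESeq2 1.42.0, limma 3.58.1, other scalings, filters, blocks and each library left out were alternatives. Shares were tested with exact permutation tests (scipy 1.17.1). The fit was also run on simulated counts with a fixed dispersion, in which a minority of loci were changed. In these data most loci passed between EV and ASC, so that run does not check this setting.

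The genes named are the 2 hairpins, Mir145b, tested members of the serum response factor and p53 lists, up to 4 highest and 4 lowest passing mesenchymal loci per comparison, the 5 most like loci, and the 3 widest neighbouring pairs. Others named were chosen after their values were seen. The members and lists were chosen with earlier results of these data known. No pair of libraries in a group agreed within sampling noise. The sequences of Mir143 and Mir145a are not reported here.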

Additional observations from a re-analysis of the deposited data

How the results depend on the processing

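Both EV against ASC calls of both hairpins held, with their signs, under each of 11 alternatives and with each of 18 libraries left out. Across the alternatives Mir143 ran from 0.70 to 1.33 (naive) and 1.60 to 2.42 (primed), and Mir145a from -3.28 to -2.62 and -2.73 to -1.89. Library totals alone moved the median of all loci by -0.46 (naive) and -0.71 (primed), and relative to that median Mir143 was at 1.41 and 2.29 and Mir145a at -2.58 and -2.03. The Mir143 minus Mir145a difference stayed between 3.93 and 4.03 (naive) and 4.27 and 4.34 (primed) across the alternatives, and between 3.82 and 4.11 (naive) and 4.14 and 4.45 (primed) without 1 library. For primed against naive EV, Mir145a was negative with TMMwsp (-0.0597), relative log expression factors and DESeq2 (-0.0052 each), library totals (-0.19), the stricter filter (-0.0157) and only the groups compared (-0.0202), and ran from -0.0176 to 0.28 without 1 library. Mir143 there was at -0.0021 with library totals, and its share difference of -0.03 points turned to 0.375 without Mir22 and Mir21a counts and 2.26 without those of the 5 other most abundant loci.

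For primed against naive ASC, Mir143 ran from -1.05 to -0.70 without 1 library and lost its call with only the groups compared (-0.78), and its share difference was -8.21 and -10.2 points with the 2 reduced totals, without a call. Mir145a passed with library totals (-0.75) and limma-voom (-0.76) and ran from -0.85 to -0.56 without 1 library. The priming difference of Mir143 passed with no filter (1.26) and ran from 0.88 to 1.28 without 1 library.

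Without 1 library of the groups compared, share differences of Mir143 ran from 6.95 to 9.77 points (naive EV against ASC), 14.5 to 16.2 (primed EV against ASC), -8.19 to -5.37 (primed against naive ASC) and -0.609 to 1.08 (primed against naive EV). Those of Mir145a ran from -1.41 to -1.31, -0.882 to -0.671, -0.708 to -0.497 and -0.0304 to -0.00650 in the same order. The losses of a call there follow from the smaller arms together with the adjustment over the 8 share tests. In the exact permutation test 4 against 3 libraries cannot give a p below 0.0571. With 5 against 3 none is below 0.0357, and the adjusted p then reached 0.0714 in the EV against ASC comparisons.

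The count of loci passing for primed against naive EV, 2, was 1 with TMMwsp and with library totals, 8 with no filter, 5 with DESeq2, and 1 to 8 without 1 library (8 without primed EV 2, 4 without naive EV 1, and 1 without naive ASC 1, naive ASC 3 or any primed ASC library). For primed against naive ASC, 25 became 15 with only the groups compared and 6 to 33 without 1 library (6 without naive ASC 3 or 4, 11 without primed ASC 3 and 12 without primed ASC 4), and for the priming difference 0 became 3 with no filter and with DESeq2, and 0 to 1 without 1 library. With library totals 0 mesenchymal loci passed between EV groups, and 2 loci of the serum response factor list between ASC groups. The cause of these changes was not tested, apart from the smaller arms named above.

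Under a replicate block on the title numbers, 7 loci passed between primed and naive EV, Mir143 was at 1.23 and 2.34 and Mir145a at -2.76 and -1.93 in the EV against ASC comparisons, and no call of either hairpin changed. The libraries were not treated as paired, since no label says that the numbers pair cultures. Not every same-numbered pair correlated above 0.1. By source name number, pairs numbered 2 to 4 correlated at 0.25 to 0.52 and those numbered 1 at 0.42 and 0.13, while pairs numbered 5 ran from -0.16 to 0.08. In naive EV against naive ASC, libraries 1, 3 and 4 of the EVs correlated best with their own number and library 5 did not. Against primed ASC, primed EV 2 and 3 did so and primed EV 4 and 5 did not. Against naive ASC, primed ASC 3 and 4 did so and primed ASC 5 did not. Against naive EV, primed EV 1 and 4 did so and primed EV 2, 3 and 5 did not. This is a hint of shared numbers from the data and not from the design. Depth limits neither hairpin, but arms and isomiRs are not resolved.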

Other observations

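Mir22 and Mir143 were low together in the same cell library. In naive ASC 1, 3, 4 and 5 Mir22 took 14.7%, 18.9%, 20.8% and 8.20% of counts, and Mir143 12.9%, 16.9%, 17.0% and 8.57%. Naive ASC 5 was lowest in both, and Mir191 was its most counted locus, at 8.86%, where Mir22 led each other ASC library. By share Mir145a did not show this spread, at 1.49% in naive ASC 5 and 1.35% to 1.66% in the other naive ASC libraries. In primed ASC the reverse held, with Mir143 between 6.69% and 8.29% and Mir145a between 0.558% and 1.19%. On the TMM-scaled CPM scale naive ASC 5 was the lowest naive ASC library for Mir145a too, at 9555, against 11475 to 13829 in the others. Naive EV 4 was the EV library in which Mir143 stood above Mir22, at 25.2% against 24.5%.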
